A study of Mus musculus with 4 samples.

Results

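Ribosomal protein pseudogenes are the copies of ribosomal protein genes whose symbols start with Rpl or Rps and carry the suffix -ps. They were picked by symbol alone from the deposited table of raw read counts, and they made up 219 of its 38087 genes. Each was set beside its parent, the functional gene named before the suffix. The 219 pseudogenes belonged to 55 families by name, and 54 of the parents were genes of the table. The parent of Rpl48-ps1 was not among them.

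The samples were bone marrow-derived macrophages, phagocytes grown in culture from the bone marrow of C57BL/6 mice aged 6 - 8 weeks for 5 to 7 days in 30% L929-conditioned medium. The 4 groups were cells left unexposed (unexposed) and cells given, for 16 h, extracellular vesicles (EVs) of Beas2B, a human lung epithelial cell line. The Beas2B cells or their vesicles had been transfected with scrambled control RNA (EV-control), miR-17 mimics (EV-miR-17) or miR-93 mimics (EV-miR-93). Each group was 1 library of the RNA of 4 biological replicates pooled before sequencing, so the spread between cultures was not measured and no test across conditions is possible.

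Ribosomal proteins are needed by every cell, and their short mRNAs are among the most abundant in the cytoplasm. Processed pseudogenes arise when such an mRNA is copied back into DNA by a retrotransposon's reverse transcriptase and inserted elsewhere in the genome, so a copy has the letters of the spliced mRNA but not the introns of its parent. A read that covers a stretch identical in copy and parent carries no letter that says which of them made it.

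Libraries held 17815250 to 22607247 reads in genes, and counts are given as reads or as normalized counts, which are reads divided by a median-of-ratios size factor for the library. The aligned bases per read, taken as coverage times length over reads in genes with a mean of at least 100 reads, had a median of 103 for unexposed, 114 for EV-control, 96.4 for EV-miR-17 and 98.7 for EV-miR-93. EV-control thus had the longest aligned stretches and the fewest reads. The macrophage markers Csf1r, Cd68, Itgam, Mertk, Fcgr1, Lyz2 and Mpeg1, 7 of 8 listed, summed to 591478 to 718624 normalized counts. The 3 T and NK cell markers summed to 0 to 6.21, the 3 epithelial markers to 0.905 to 4.44 and the 3 B cell markers to at most 29.0, with Cd3e and Ncr1 at 0 in all libraries but EV-miR-17. The sums were 453 to 670 for the neutrophil markers, nearly all S100a8, 189 to 274 for the dendritic cell markers, 59.7 to 80.1 for the fibroblast markers and 3.16 to 10.6 for the erythroid markers.

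The letters of 217 pseudogenes were found in GENCODE M21, an annotation on mm10, 213 by gene identifier and 4 by symbol and position. Of the 219, 212 were annotated there with 1 exon, and 214 could be aligned to the mRNA of the gene they are named after, with a median identity of 96.7% over the aligned bases and a lowest of 78.1%. In 85 the longest open reading frame was at least as long as that of the parent, and 23 had the type protein_coding in the deposited table. X held 34 of the 219, or 15.5%, beside 6.88% of all genes in the table.

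The Rpl31 family, with 23 pseudogenes the largest of the 55, shows how little separates a copy from its parent. Rpl31 encodes a protein of the large subunit. The lines below give coding bases 79 to 375 of Rpl31, joined over the exons lying in chr1:39367851-39371908, and the matching stretch of 4 copies, each at the place given in mm10, from GENCODE M21 transcripts read 5′ to 3′ on the strand of the gene. Capitals mark bases that differ from Rpl31. Rpl31-ps9 (chr1:129801390-129801686, minus strand) differs at 2 bases, Rpl31-ps13 (chr13:100415643-100415939, plus strand) at 4, Rpl31-ps17 (chr12:54701332-54701628, minus strand) at 5 and Rpl31-ps4 (chr16:87549078-87549373, minus strand) at 30 with 1 base missing.
Rpl31: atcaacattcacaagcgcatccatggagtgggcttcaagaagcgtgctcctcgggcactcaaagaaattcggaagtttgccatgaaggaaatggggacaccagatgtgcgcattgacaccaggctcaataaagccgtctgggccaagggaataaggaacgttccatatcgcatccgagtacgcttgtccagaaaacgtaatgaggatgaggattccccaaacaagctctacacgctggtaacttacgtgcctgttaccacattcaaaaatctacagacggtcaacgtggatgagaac
Rpl31-ps9: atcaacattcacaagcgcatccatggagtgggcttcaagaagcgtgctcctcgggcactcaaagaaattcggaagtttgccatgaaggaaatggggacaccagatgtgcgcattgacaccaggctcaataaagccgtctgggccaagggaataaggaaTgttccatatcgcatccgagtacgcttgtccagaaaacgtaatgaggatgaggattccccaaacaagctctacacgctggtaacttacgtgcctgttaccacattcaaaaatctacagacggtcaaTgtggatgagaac
Rpl31-ps13: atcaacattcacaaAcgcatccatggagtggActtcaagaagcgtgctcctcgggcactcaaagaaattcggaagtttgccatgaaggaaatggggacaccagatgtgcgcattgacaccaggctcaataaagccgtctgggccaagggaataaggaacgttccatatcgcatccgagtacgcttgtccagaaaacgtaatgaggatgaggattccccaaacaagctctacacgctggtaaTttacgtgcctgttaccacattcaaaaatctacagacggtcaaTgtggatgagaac
Rpl31-ps17: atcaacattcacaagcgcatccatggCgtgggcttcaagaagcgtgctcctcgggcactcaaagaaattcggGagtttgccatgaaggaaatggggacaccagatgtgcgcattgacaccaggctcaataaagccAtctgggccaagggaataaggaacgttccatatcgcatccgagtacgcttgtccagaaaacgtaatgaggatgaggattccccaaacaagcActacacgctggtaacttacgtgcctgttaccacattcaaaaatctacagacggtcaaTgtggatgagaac
Rpl31-ps4: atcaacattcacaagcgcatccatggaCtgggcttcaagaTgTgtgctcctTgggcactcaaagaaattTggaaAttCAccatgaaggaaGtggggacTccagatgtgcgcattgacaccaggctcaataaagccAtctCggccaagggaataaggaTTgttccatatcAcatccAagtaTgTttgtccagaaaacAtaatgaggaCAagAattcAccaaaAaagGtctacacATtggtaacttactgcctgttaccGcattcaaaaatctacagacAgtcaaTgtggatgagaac

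The copy with the highest count of all members differs from its parent at 1 base over 591 aligned bases. Rpl19 encodes another large-subunit protein. Coding bases 130 to 250 of Rpl19 (exons within chr11:98026710-98030492, plus strand) and the matching stretch of Rpl19-ps11 (chr8:19493065-19493185, plus strand) are shown around that base, again with the differing base in capitals.
Rpl19: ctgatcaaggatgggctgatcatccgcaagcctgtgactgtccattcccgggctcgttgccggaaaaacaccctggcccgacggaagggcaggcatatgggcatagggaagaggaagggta
Rpl19-ps11: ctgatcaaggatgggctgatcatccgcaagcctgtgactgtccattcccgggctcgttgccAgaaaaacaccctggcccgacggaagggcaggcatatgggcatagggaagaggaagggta

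The pseudogenes took 1.05% of all reads in genes in unexposed, 1.22% in EV-control, 1.04% in EV-miR-17 and 1.10% in EV-miR-93. Their 54 parents took 0.536%, 0.465%, 0.573% and 0.567% in the same order. Of the reads of a family, counted over parent and pseudogenes, the pseudogenes thus held 66.1% (95% exact binomial interval 65.9 to 66.3) in unexposed, 72.4% (72.3 to 72.6) in EV-control, 64.5% (64.3 to 64.7) in EV-miR-17 and 65.9% (65.8 to 66.1) in EV-miR-93. EV-control had the highest pseudogene share and the lowest parent share of the 4 libraries. Reads are not independent molecules, so these and all other intervals cover counting error only. With the 63 pseudogenes that overlap another gene left out, the family shares were 54.3%, 61.5%, 52.1% and 53.8%.

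Levels among the pseudogenes ran from 0 reads in all libraries, for 2 of them, to a mean over the 4 libraries of 13652 normalized counts. Of the 219, 147 had a mean of at least 20, 51 had a mean of at least 1000, and the median over all 219 was 146 beside 1404 for the parents. The 12 with the highest means held 39.6% of all pseudogene reads. All 12 of them had their highest normalized count in EV-control.

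Rpl19-ps11, a pseudogene without introns at chr8:19492906-19493623, had 13747 normalized counts in unexposed, 14867 in EV-control, 11822 in EV-miR-17 and 14173 in EV-miR-93. Its parent Rpl19 (chr11:98026710-98030492) had 1640, 1362, 2107 and 2109. The copy was far above the parent in every library, 7.91 times in mean count per kb, where the length is that of the deposited span for a copy and of the chosen spliced transcript for a parent. That transcript is long for the coding part in some parents, such as 5130 bases for 130 codons in Rps15a. A long transcript lowers the parent's count per kb and raises such ratios.

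Rpsa-ps10 (chr3:150072590-150073620) had 9384, 11961, 8390 and 8762 normalized counts in the order unexposed, EV-control, EV-miR-17 and EV-miR-93. Its parent Rpsa, which encodes a small-subunit protein also known as the laminin receptor, had 5424, 6368, 5647 and 5471. The longest open frame of Rpsa-ps10 held 34 codons beside 295 in Rpsa, and the frame of Rpl19-ps11 held all 196 of its parent's.

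Rps16-ps2 (chr5:129128020-129128571), identical to Rps16 over all aligned bases, had 8398, 9759, 8581 and 8710 normalized counts. Rpl3-ps1 (chrX:13202546-13203838), a copy of the gene for the protein that helps shape the peptidyl transferase centre, had 7569, 9051, 7004 and 7510. Rps27a-ps2 (chr9:83409660-83410130), a copy of a gene that encodes ubiquitin fused to a small-subunit protein, had 5874, 9300, 6122 and 6949. These 3 had 7.11, 4.97 and 10.4 times the mean count per kb of their parents.

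Rps19-ps6 (chr12:110898114-110898551), a copy of a gene mutated in Diamond-Blackfan anaemia in humans, had 6735, 8576, 6093 and 6600 normalized counts. Rps6-ps4 (chr2:75191034-75191854), a copy of the gene for the small-subunit protein phosphorylated by S6 kinases, had 6597, 8569, 5311 and 5890. Rpl28-ps1 (chr1:128038527-128039022), a copy of a large-subunit gene, had 6286, 7552, 5446 and 5847. Rpl28-ps1 had 27.9 times the mean count per kb of Rpl28, the largest such ratio among the 12. The transcript used for Rpl28 was 1106 bases long for 137 codons, which raises this ratio.

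Rpl7a-ps12 (chrX:152908778-152910296) had 5557, 8095, 5366 and 5674 normalized counts, and Rpl10a-ps1 (chr1:64993924-64994631) had 6062, 6193, 6067 and 6111. Rps23-ps (chr3:37714717-37715212) had 4842, 6195, 5167 and 4780, and Rpl31-ps8 (chr15:90764246-90764679) had 4430, 7772, 4174 and 4391. Rpl10a-ps1 was nearly level over the libraries, whereas Rpl31-ps8 was 1.75 times as high in EV-control as in unexposed (95% interval 1.69 to 1.82).

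**Figure D1:**
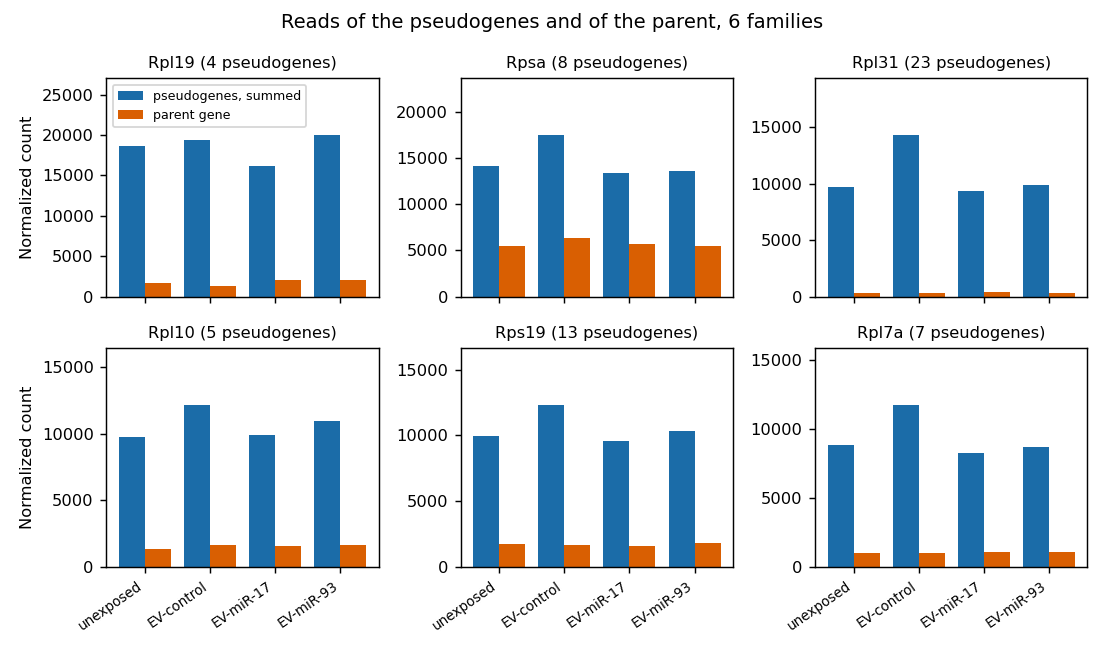
Normalized counts per library for the 6 families with the most pseudogene reads, as bars for the summed pseudogenes (blue) and the parent gene (orange), with 1 library per bar and no error bars. The blue bar is the taller one in every library of all 6 families, and it is tallest in EV-control in 5 of the 6 families, Rpl19 being the exception.

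By family, the pseudogenes together held over 50% of the family reads in every library in 37 of 54 families and at most 10% in every library in 8. The 6 families with the most pseudogene reads were Rpl19, Rpsa, Rpl31, Rpl10, Rps19 and Rpl7a. In Rpl31, the 23 pseudogenes held 97.1% of the reads in unexposed, 97.6% in EV-control, 95.9% in EV-miR-17 and 96.7% in EV-miR-93, and the parent had 271, 302, 452 and 377 reads. In Rpl19 the shares were 91.9%, 93.4%, 88.5% and 90.5%, and in Rpsa 72.2%, 73.3%, 70.2% and 71.2%.

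Rpl10, whose protein lies near the peptidyl transferase centre, had shares of 88.3%, 88.4%, 86.5% and 87.2%. Rps19 had 85.4%, 88.4%, 85.7% and 85.3%, and Rpl7a, a large-subunit gene, had 89.6%, 92.4%, 88.8% and 89.1%. At the other end, at 10% or less in every library, were 8 families: Rplp0, Rplp1, Rpl12, Rpl27a, Rpl26, Rpl32, Rpl29 and Rpl35. The proteins of Rplp0 and Rplp1 form the stalk that binds translation factors, and their copies named with -ps had few reads beside the parent. Rpl35, Rpl32, Rpl29 and Rpl26 had lower shares than Rplp0 in every library. Rplp0 had 13503, 10118, 15544 and 14853 reads beside 407, 311, 566 and 567 in Rplp0-ps1, and Rplp1 had 13793, 5270, 13138 and 14168 beside 22, 18, 33 and 23 in Rplp1-ps1. Copies of both under other symbols, which the shares do not count, had more reads. RP23-463F7.8, a copy of Rplp0, had 5009, 6191, 4606 and 5032, and Gm11942, a copy of Rplp1, had 3158, 3363, 3978 and 4858. For Rpl26 and Rpl12, such a copy exceeded the parent in every library. Gm15772 had 8241, 9178, 8606 and 9578 reads beside 3420, 2784, 4327 and 4288 in Rpl26. Gm15793 had 2201, 1687, 2472 and 2711 beside 1219, 624, 1886 and 1690 in Rpl12. Rpl27a, Rpl29 and Rpl35 also had such copies, which the shares leave out too.

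Level followed likeness to the parent. Of the 28 pseudogenes under 90% identity, 5 had a mean of 20 or more normalized counts, as did 16 of 49 at 90 to under 95%, 43 of 56 at 95 to under 98%, and every one of 37 at 98 to under 99% and of 44 at 99 to 100%. The median mean normalized count was 1.26, 11, 114, 610 and 2546 in these classes. Spearman's rho between identity and mean normalized count per kb was 0.82 over 214 pseudogenes, and 0.82 within each library. Members of 1 family share a parent and its level, so these points are not independent, and the value is given as a description.

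The 12 pseudogenes identical to their parent over all aligned bases had means of 1606 to 8862 normalized counts, and all 12 exceeded their parent per kb. They were Rps16-ps2, Rps6-ps4, Rpl28-ps1, Rpl10a-ps1, Rpl31-ps8, Rps12-ps3, Rpl10-ps3, Rpl10-ps1, Rpl38-ps2, Rpl27-ps3, Rps13-ps2 and Rpl15-ps3. Per kb, 40 of the 44 pseudogenes at 99 to 100% identity were above the parent, beside 1 of 28 under 90%. Over all classes 72 of 218 were above it. These comparisons per kb depend on the length of the transcript chosen for the parent. A median of 70.8% of the 100-base windows of a parent's coding part spanned a junction of its exons, and such a stretch lies unbroken in the genome in a processed copy but not in the parent. Neither the aligner nor its treatment of junctions is given in the sources used here, so the part of these windows in the counts was not tested.

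**Figure D2:**
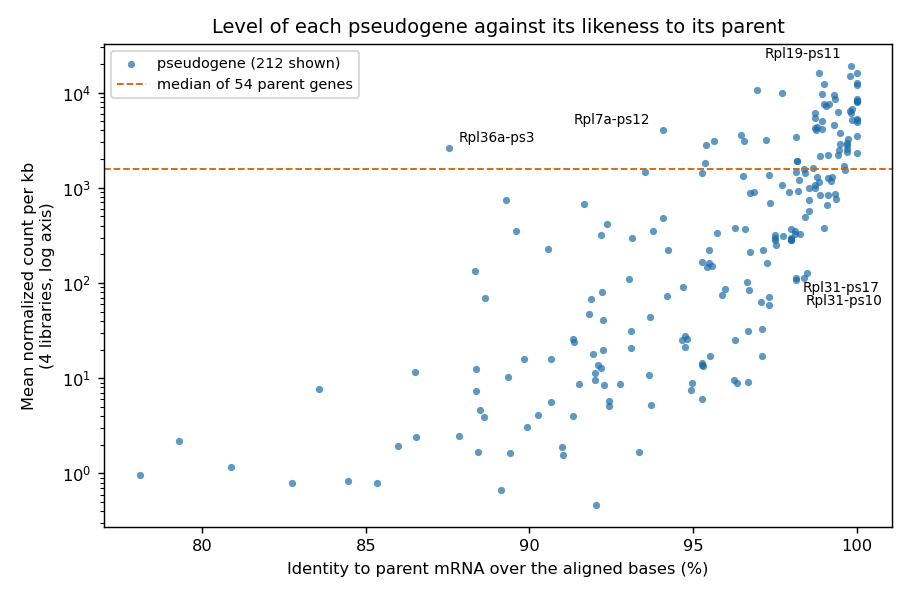
Mean normalized count per kb over the 4 libraries (log axis) against identity to the parent mRNA in percent, 1 point per pseudogene for the 212 with an alignment and at least 1 read; the dashed line is the median of the 54 parent genes. Points rise with identity, and those above the line are mostly at the right edge, with Rpl36a-ps3 and Rpl7a-ps12 above it at 87.5% and 94.1%.

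Copies of Rpl31 with the same number of mismatches differed in level. Rpl31-ps13, Rpl31-ps10 and Rpl31-ps17 each had 7 mismatches over 378 aligned bases, or 98.1% identity. Rpl31-ps13 had 1035 reads in unexposed, 1446 in EV-control, 1214 in EV-miR-17 and 1419 in EV-miR-93. Rpl31-ps10 had 33, 33, 59 and 41 reads, and Rpl31-ps17 had 34, 31, 64 and 48. The longest run of bases identical to Rpl31 was 209 in Rpl31-ps13, 114 in Rpl31-ps10 and 90 in Rpl31-ps17. In the stretch printed above, the differing bases lie near both ends in Rpl31-ps13 and are spread along Rpl31-ps17.

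Rpl31-ps8, with no mismatch, had 4204, 6636, 4703 and 4850 reads, and Rpl31-ps9, with 2 mismatches and a run of 236, had 916, 779, 1051 and 1029. Both are near-copies, yet the first was higher in EV-control than in the other libraries and the second was nearly level in normalized counts. The log2 ratio of Rpl31-ps9 was -0.08 in EV-control against unexposed. It was 0.03 in EV-miR-17 and 0.03 in EV-miR-93 against EV-control. In every library Rpl31-ps9 had fewer reads than Rpl31-ps13, which has more mismatches and a shorter run. Rpl31-ps4, with 31 mismatches and a run of 105, had 321, 132, 328 and 293, above Rpl31-ps10 and Rpl31-ps17 in every library. Neither mismatches nor the longest run thus ordered these copies by level. The 10 copies with the lowest means, at 86.0% to 96.3% identity, had at most 10 reads in any library.

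Few pseudogenes of low identity had many reads. Of the 77 under 95% identity, 3 had a mean of 500 or more normalized counts, namely Rpl7a-ps12, Rpl36a-ps3 and Rpl22-ps1. Rpl7a-ps12 had 94.1% identity and a longest identical run of 58 bases. Another gene of the table, AL807777.1 (chrX:152909504-152910155, 652 bases, same strand), lies inside its span, and this gene had 5267, 6908, 6042 and 6261 reads beside 5273, 6912, 6047 and 6268 for Rpl7a-ps12, or 99.9% in all.

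Rpl36a-ps3 was 87.5% identical to Rpl36a but 99.7% identical to Rpl36al, the related gene that encodes a protein like that of Rpl36a. Rpl29-ps3 is annotated as antisense, and its best match was Rps16 at 96.4%, with a mean of 8.11 normalized counts. The symbol thus named another parent than the best-matching letters in both.

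Copies of Rps12, a small-subunit gene, included 15 on X between 103489517 and 151166109. They were 89.9% to 98% identical to Rps12 and had means of 1.18 to 146 normalized counts. In 9 of the 15, no 100-base window was free of a perfect match in another annotated transcript, so a read of that length from them could not be placed by its letters. Together they had 1130 reads in unexposed, 814 in EV-control, 1534 in EV-miR-17 and 1332 in EV-miR-93, lowest in EV-control.

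The count of a pseudogene was also set beside that of a gene around it. Of the 219, 62 lay wholly inside the span of another gene, making 63 pairs of pseudogene and host, and they held 36.9% of all pseudogene reads. In 63 of 63 pairs the host had at least as many reads as the pseudogene in each of the 4 libraries. In some pairs the host was far higher, such as Gm20388 with 69441 reads in unexposed beside 955 in Rps12-ps9. Individual reads were not inspected, so whether the same reads entered both counts was not tested. Among the 44 pairs whose pseudogene had a mean of 20 or more normalized counts, the pseudogene lay in an intron of the host in 42, by GENCODE M21. In 32 of the 44, the host was on the opposite strand. The pseudogene's reads came to at least 90% of the host's in 18 of the 44 pairs, 13 of them on opposite strands. The hosts named here were chosen after their values were seen.

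Ctla4 (chr1:60887000-60915832), the checkpoint receptor of T cells, had 2114 reads in unexposed, 1341 in EV-control, 2807 in EV-miR-17 and 2354 in EV-miR-93. Rpl18-ps1, in its intron, had 2113, 1338, 2803 and 2354. The reads of Ctla4 beyond those of the pseudogene were 1, 3, 4 and 0, beside the sums of 0 to 6.21 for the T and NK cell markers.

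Gpr133 (chr5:129096750-129204599), an adhesion G protein-coupled receptor gene, had 8004, 8362, 9719 and 9690 reads beside 7969, 8333, 9669 and 9622 in Rps16-ps2 on the other strand. The count of Gpr133 exceeded that of the pseudogene by 35, 29, 50 and 68 reads. Spag6 (chr16:16753016-16829456), which encodes a protein of the sperm flagellum, had 1190, 1902, 1497 and 1559 reads beside 1187, 1899, 1492 and 1555 in Rpl31-ps12. Its log2 ratio of EV-control to unexposed was 0.83, as was that of the pseudogene. The pseudogene's reads came to 99.5% and 99.8% of those of its host.

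Lca5 (chr9:83390293-83441127), a cilium gene, had 5785, 8070, 7110 and 7891 reads beside 5574, 7941, 6898 and 7676 in Rps27a-ps2. Its log2 ratio of EV-control to unexposed was 0.63. The count of Lca5 exceeded that of the pseudogene by 211, 129, 212 and 215 reads, and the log2 ratio of this excess was -0.55. Trpm4 (chr7:45303155-45333780), a cation channel gene, had 3542, 3801, 3940 and 3832 reads beside 3299, 3568, 3656 and 3550 in Rpl14-ps1. Flg (chr3:93273541-93282353), which encodes the epidermal protein filaggrin, had 409, 316, 573 and 574 beside 407, 311, 566 and 567 in Rplp0-ps1. The 3 epithelial markers summed to at most 4.44 normalized counts. Where the reads counted for Flg came from was not tested.

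**Figure D3:**
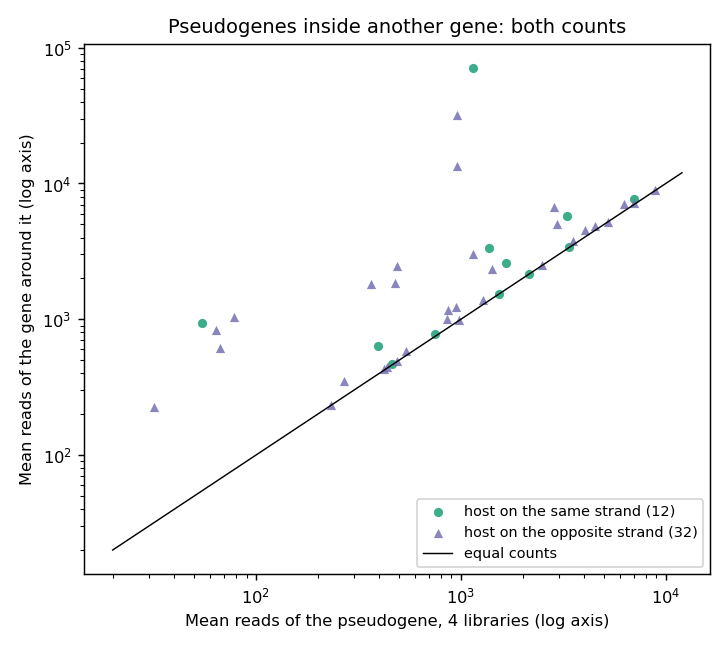
Mean reads over the 4 libraries of the gene around a pseudogene against those of the pseudogene (both log axes), 1 point per pair for the 44 pairs whose pseudogene had a mean of 20 or more normalized counts, by strand of the host. No point lies below the line of equal counts, and in 18 of them the pseudogene's reads come to at least 90% of the host's.

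The libraries were then compared pair by pair. Ratios are given as log2 of normalized counts plus 1, and a gene was called higher or lower where the normalized counts differed 2-fold or more with a pair mean of 20 or more, and the 95% exact conditional interval of the ratio excluded 1. In such bulk RNA, fewer cells of a type and less RNA per cell cannot be told apart. The 3 ratios against unexposed share that library, and the 2 against EV-control share that one.

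In EV-control against unexposed, 144 pseudogenes passed the minimum, 1 was called higher and 3 lower. The same rule called 0.490% of the 15294 genes tested higher and 0.791% lower. The median log2 ratio was 0.09 for the pseudogenes and -0.13 for the 54 parents, beside 0.00 for all genes. Of the parents, 18 had a ratio above 0 and 36 below, and 34 of the 54 had their lowest normalized count in EV-control. Among the listed ribosomal protein genes as a whole, 32 of 81 tested were above 0, with a median of -0.08.

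Rpl21-ps4 (chr14:11227552-11227992), a copy of a large-subunit gene, had 73 reads in unexposed, 21 in EV-control, 84 in EV-miR-17 and 68 in EV-miR-93. EV-control stood below the other libraries, with a ratio to unexposed of 0.320 (95% interval 0.187 to 0.525). Rpl21-ps6 (chr17:55915403-55915870) had 168, 71, 239 and 198 reads and a ratio of 0.470 (0.351 to 0.623), and Rpl31-ps4 had a ratio of 0.457 (0.370 to 0.561). All 3 were lowest in EV-control, and they had 88.3%, 93.8% and 91.7% identity to their parents.

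Against unexposed, EV-miR-17 had 1 called pseudogene of 147 and EV-miR-93 1 of 148. Rps2-ps5 (chr12:34290274-34291092), whose parent encodes a small-subunit protein, was called higher in EV-miR-17, with 14, 14, 35 and 30 reads and a ratio of 2.11 (1.10 to 4.24). Rpl23a-ps1 (chr1:45981548-45982015), a copy of a large-subunit gene, was called higher in EV-miR-93, with 9, 16, 29 and 38 reads and a ratio of 3.63 (1.72 to 8.53). Both rest on few reads. Of all genes, 0.292% were called higher and 0.182% lower in EV-miR-17, and 0.357% higher and 0.182% lower in EV-miR-93. The pseudogenes had medians of 0.07 in both pairs and the parents of 0.16 and 0.11, with 43 of 54 parents above 0 in each.

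Against EV-control, 5 of 147 pseudogenes were called higher and 0 lower in EV-miR-17, beside 1.05% and 0.456% of all genes. In EV-miR-93 4 of 147 were called higher and 0 lower, beside 0.996% and 0.462%. Rpl21-ps4 was 3.03 (1.86 to 5.15) and 2.50 (1.52 to 4.30) times as high, and Rpl21-ps6 2.55 (1.95 to 3.37) and 2.16 (1.64 to 2.87) times. Both were also called lower in EV-control against unexposed, and the shared EV-control library enters all of these ratios.

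Called in 1 of these pairs were Rpl38-ps1 (chr4:138425788-138426002), with 262, 179, 485 and 370 reads, Rpsa-ps11 (chr4:59162268-59163156), with 268, 158, 426 and 393, and Rpl19-ps7 (chr14:13777814-13778440), with 156, 115, 304 and 336. The first 2 were 2.05 (1.73 to 2.45) and 2.04 (1.70 to 2.47) times as high in EV-miR-17 as in EV-control, and Rpl19-ps7 was 2.26 (1.82 to 2.82) times as high in EV-miR-93. All 3 had their lowest count in EV-control. Whether the pairs differ in these genes was not tested.

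Between EV-miR-93 and EV-miR-17 0 of 151 pseudogenes and 0 of 54 parents were called in either direction, beside 0.162% of all genes higher and 0.103% lower. By the interval alone, 32 pseudogenes were above a ratio of 1 and 19 below it. The shares of all genes just given are for the 2-fold rule, and none is given for the interval alone. The median was 0.00 for the pseudogenes and -0.04 for the parents.

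Among the parents, Rplp1 and Rpl12 were called. Rplp1 (chr9:61913284-61914538), a stalk protein gene, had 14536 normalized counts in unexposed, 6172 in EV-control, 11659 in EV-miR-17 and 12826 in EV-miR-93. It was 0.425 times as high in EV-control as in unexposed (0.411 to 0.438) and 2.08 times as high in EV-miR-93 as in EV-control (2.01 to 2.15). Rpl12 (chr2:32961559-32964496), whose protein sits at the base of the stalk, had 1285, 731, 1674 and 1530, with ratios to EV-control of 2.29 (2.09 to 2.51) in EV-miR-17 and 2.09 (1.91 to 2.30) in EV-miR-93. Both were lowest in EV-control.

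In EV-control the ratios of the pseudogenes differed with their level, but not in 1 order over all levels. In EV-control against unexposed, the 38 with a mean of at least 2000 normalized counts had a median log2 ratio of 0.26, with 33 above 0 and 5 below, and the 38 with a mean of 500 to under 2000 had 0.12, with 25 above and 13 below. The 45 with a mean of 100 to under 500 had -0.23, with 14 above and 31 below, whereas the 26 with a mean of 20 to under 100 had 0.00, with 13 above and 13 below. For all genes the medians in these classes, from the highest level to the lowest, were 0.01, 0.00, 0.01 and -0.05. In EV-miR-17 against EV-control, the medians of the pseudogenes in the same order were -0.37, -0.06, 0.25 and 0.43, with 5 of 38, 17 of 38, 39 of 45 and 19 of 26 above 0, beside -0.07, -0.04, -0.01 and 0.08 for all genes. In EV-miR-93 against EV-control they were -0.28, 0.01, 0.25 and 0.21. Spearman's rho between mean normalized count and log2 ratio was 0.36 in EV-control against unexposed and -0.63 in EV-miR-17 against EV-control, over 147 pseudogenes that share libraries and parents.

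By likeness, in EV-control against unexposed the 44 pseudogenes at 99 to 100% identity had a median of 0.22, with 36 above 0, and the 37 at 98 to under 99% had 0.13, with 25 above 0. The 42 tested at 95 to under 98% had -0.19, with 15 above 0, the 15 tested at 90 to under 95% had -0.13, with 5 above 0, and the 5 tested under 90% had -0.12, with 2 above 0. In EV-miR-17 against EV-control the medians in the same order were -0.25, 0.09, 0.35, 0.31 and 0.19. Split by whether their letters place a read, the 24 tested pseudogenes all of whose 100-base windows occurred in no other annotated transcript had a median of -0.13 in EV-control against unexposed, with 11 above 0. The 62 with 50% to under 100% of such windows had -0.04, with 30 above 0, the 30 with some but under 50% had 0.26, with 23 above 0, and the 28 with none had 0.15, with 19 above 0. In EV-miR-17 against EV-control these 4 classes had 0.19, 0.14, -0.30 and -0.07. The class with no such window lay nearer to 0 in both pairs than the one with some but under 50%, so the medians did not follow the share of windows in order. The median aligned bases per read over the pseudogenes was 107, 118, 100 and 101 in unexposed, EV-control, EV-miR-17 and EV-miR-93, and over the parents 93.6, 100, 89.6 and 90.6. The part of read length in these ratios was not tested.

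**Figure D4:**
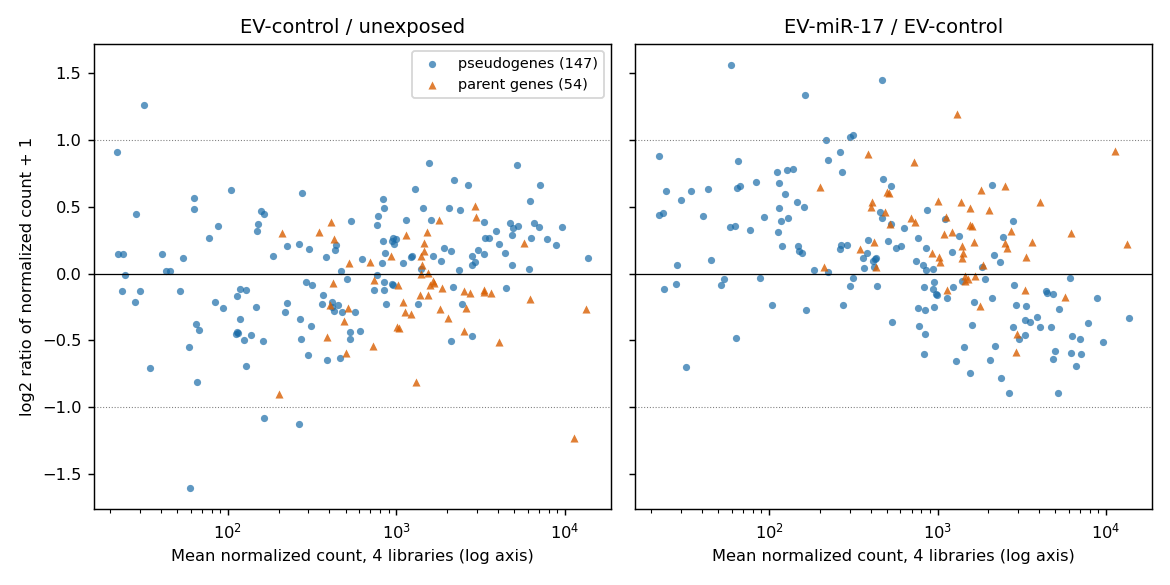
Log2 ratio of normalized counts plus 1 against the mean normalized count over 4 libraries (log axis), for EV-control to unexposed and EV-miR-17 to EV-control, 1 point per pseudogene with a mean of at least 20 (blue, 147) or parent gene (orange, 54); dotted lines mark 2-fold. The blue points at the right lie mostly above 0 in the first panel and below 0 in the second, and the orange points the other way.

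Within families, parent and pseudogenes moved in opposite directions in a minority in EV-control against unexposed. In the mimic libraries against EV-control they did so in a majority. Against unexposed, the summed pseudogenes were above 0 and the parent below 0 in 23 of 54 families, and the reverse held in 2. In EV-miR-17 against EV-control, pseudogenes below 0 and parent above 0 were seen in 28 families and the reverse in 1, and in EV-miR-93 against EV-control in 30 and 2. The share held by the pseudogenes was highest in EV-control in 40 of 54 families, in unexposed in 4, in EV-miR-17 in 4 and in EV-miR-93 in 6, and it was lowest in EV-miR-17 in 28. EV-control was above unexposed in 46 of 54, EV-miR-17 in 17 and EV-miR-93 in 19.

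The widest spread of that share was in the family of Rps15, a small-subunit gene with 1 pseudogene, Rps15-ps2. The pseudogene held 52.9% of the family reads in unexposed (95% interval 51.9 to 54), 66.3% in EV-control (65.2 to 67.3), 46.6% in EV-miR-17 (45.6 to 47.6) and 51.4% in EV-miR-93 (50.4 to 52.4). Rps15-ps2 had 4941, 6044, 3887 and 4494 normalized counts, highest in EV-control, and Rps15 had 4392, 3077, 4455 and 4251, lowest there. In the Rps24 family, also of the small subunit, the share was 59.5%, 67.2%, 55.8% and 56.7%, with Rps24-ps3 at 4971, 6287, 4205 and 4305 normalized counts and Rps24 at 3441, 3122, 3409 and 3347.

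**Figure D5:**
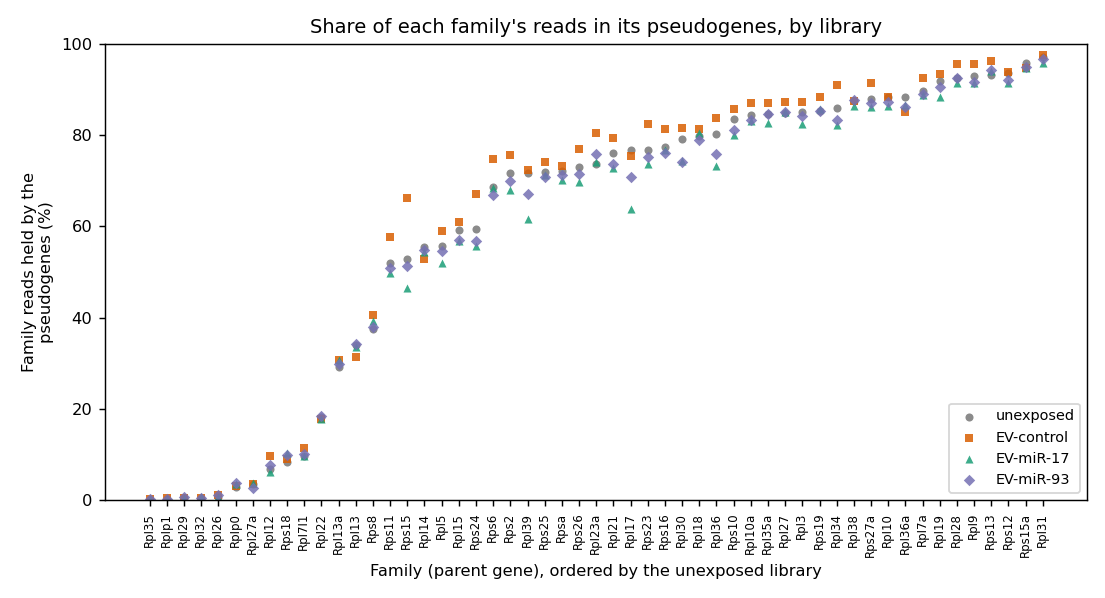
Percentage of the reads of each of 53 families (parent plus pseudogenes) that its pseudogenes held, 1 point per library, with families ordered by the unexposed library. Shares run from near 0 for Rpl35 and Rplp1 to over 95% for Rpl31, and the EV-control point is the highest of the 4 in 40 families.

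Family totals are parent and pseudogenes added together. In EV-control against unexposed and in the mimic libraries against EV-control, the totals were more evenly split around 0 than the parents. They were not more evenly split there than the pseudogenes. The median log2 ratio of the 54 totals was 0.07 in EV-control against unexposed, with 33 above 0 and 21 below, -0.05 in EV-miR-17 against EV-control, with 23 above and 31 below, and -0.06 in EV-miR-93 against EV-control, with 25 above and 29 below. For the pseudogenes the counts above and below 0 were 83 and 61, 80 and 67, and 73 and 74 in these pairs. Scaled to total counts instead, the median of the totals in EV-miR-17 against EV-control was 0.0082, so its sign depends on the scaling. The total was nearer to 0 than the parent alone in 28, 30 and 31 of the 54 families in these pairs. Against unexposed the medians were 0.05 in EV-miR-17 and 0.06 in EV-miR-93, and the median was 0.01 between the mimic libraries. In EV-miR-17 against unexposed, 31 totals were above 0 and 23 below, beside 93 and 54 pseudogenes, so the totals were more evenly split there. In EV-miR-93 against unexposed, the counts were 37 and 17 for the totals and 89 and 59 for the pseudogenes.

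The authors' deposited table of fold changes lists genes for 5 pairs of libraries, and it held 61 of the 219 pseudogenes, or 27.9%, beside 15.0% of all 38087 genes and 4 of the 54 parents. Of these 61 in the authors' deposited table, 46 had a mean under 20 normalized counts, and 9 of the 10 pseudogenes called here in any pair were among the 61. The percentages listed are not over genes of like level. In EV-control against unexposed, 144 of the 219 pseudogenes passed the minimum, beside 15294 of the 38087 genes. Listing among genes of like level was not compared.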

How the data were processed

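RNA was measured in 4 libraries, 1 per group, grouped by the transfection label. Per the labels, each library pooled 4 biological replicates and used the Ion Total RNA-Seq Kit v2. The deposited table of raw values gives the count of reads per gene as whole numbers and the average coverage per base, a signal not scaled to depth, and the GC content in percent, per the file headers. The authors' deposited log2 values and log2 fold changes were used as an alternative and for the authors' list only. The submitters' processing notes name mm10 and DESeq. How reads were aligned, annotated and assigned to strands is not given in the sources used here.

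Size factors were medians of ratios (0.949, 0.854, 1.13 and 1.10 for unexposed, EV-control, EV-miR-17 and EV-miR-93), computed with numpy 2.4.6 and scipy 1.17.1. A call needed a 2-fold ratio with a pseudocount of 1, a pair mean of 20 normalized counts and a 95% exact conditional (Clopper-Pearson) interval that excludes 1. The script was tested on simulated data. With 1 library per group there is no p-value. Letters came from GENCODE M21 transcripts, aligned with blastn 2.17.0 to the parent's mRNA, and windows were 100 bases long. No sequence was matched for Rps13-ps3 and Rps2-ps5. The members and gene lists were chosen with earlier results of these data known. Named genes were the 12 pseudogenes with the highest mean, up to 10 called ones, the 6 families with the most pseudogene reads and the called parents, plus hosts, exceptions and the Rpl31, Rps12, Rps15 and Rps24 families, chosen after their values were seen. Other scalings, minimums, thresholds and member sets were tried as alternatives. All 219 pseudogenes are accounted for, 72 of them with a mean under 20. Values of some pseudogenes and parents are not reported here.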

Additional observations from a re-analysis of the deposited data

How the results depend on the processing

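No paired analysis was possible because each group was 1 library and the labels carry no replicate numbers. Calls of pseudogenes numbered 4 in EV-control against unexposed, 1 in EV-miR-17 and 1 in EV-miR-93 against unexposed, 5 and 4 in the same libraries against EV-control, and 0 between the mimic libraries. With a 1.5-fold threshold they were 17, 9, 4, 34, 18 and 1, and with no minimum 7, 2, 3, 8, 8 and 1. A minimum of 100 left 2, 0 and 0 in the pairs against unexposed. With 1 pseudogene per family they were 0, 0, 0, 1 and 1 in the first 5 pairs. Parent calls with a 1.5-fold threshold were 4 and 1 in EV-control and EV-miR-17 against unexposed, and 10 and 7 against EV-control. The shares of all genes given above are for the 2-fold rule with the main minimum. None is given for the other threshold and minimums, so these counts of pseudogenes and parents were not set against all genes. With 1 pseudogene per family, the one with most reads, the median log2 ratio was 0.22 in EV-control, 0.0011 in EV-miR-17 and 0.012 in EV-miR-93 against unexposed, and -0.23 and -0.18 against EV-control, where all pseudogenes gave 0.05 and -0.01. Scaling to total counts gave 0.12 in EV-miR-17 against unexposed. Without pseudogenes overlapping another gene, their share of reads in genes was 0.636%, 0.743%, 0.625% and 0.659%, and of family reads 54.3%, 61.5%, 52.1% and 53.8%. The cause was not tested beyond fewer members entering. The medians of the parents kept their sign in all 6 pairs under the alternatives tried. Those of family totals did so except in EV-miR-17 against EV-control, where scaling to total counts turned -0.05 to 0.0082. The pseudogene median in EV-miR-93 against EV-control, -0.01, was 0.04 with total counts, 0.01 with TMM and 0.06 with the authors' log2 values, and that between the mimic libraries, -0.0023, was 0.01 with a minimum of 100, 0.0011 with the authors' log2 values and 0.03 with 1 pseudogene per family.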

Other observations

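The other pseudogenes with the suffix -ps, copies of genes outside the ribosome, numbered 635, of which 102 passed the minimum in EV-control against unexposed. Their median log2 ratio there was 0.17, with 76 above 0 and 26 below, and it was -0.21 in EV-miR-17 and -0.13 in EV-miR-93 against EV-control. The most abundant was Tpt1-ps3, a copy of the gene for translationally controlled tumor protein, with 26363, 35799, 25810 and 26563 normalized counts in unexposed, EV-control, EV-miR-17 and EV-miR-93. It was highest in EV-control, as was Oaz1-ps, a copy of the antizyme gene, with 11661, 14978, 11176 and 11398.

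A further 158 pseudogenes without such a symbol shared a perfect 100-base window with the coding part of a parent. They had 143089, 149006, 167314 and 169939 reads in the same order. Counting them too, copies held 76.8%, 81.6%, 75.7% and 76.6% of the reads of parents and copies together, again highest in EV-control. Taken gene by gene, 144 of the 158 passed the minimum in EV-control against unexposed. Their median log2 ratio was 0.02, with 76 above 0 and 68 below. In EV-miR-17 and EV-miR-93 against EV-control, the medians of these copies were 0.15 and 0.13. There 91 and 87 were above 0, and 54 and 57 below. With 1 library per group, the condition and the library cannot be told apart.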
